A study of Mus musculus with 3 samples.

Results

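A set of 43 genes of DNA replication and S phase was described in regulatory T cells (Tregs), by matching their symbols to GENCODE M21 gene names among the 55536 genes of the deposited tables. All 43 were found, also in a second, whole-number count table. The set holds the loaders and subunits of the replicative helicase, the sliding clamp and its loaders, DNA polymerases, the single-strand binding complex, enzymes of deoxynucleotide supply, E-type cyclins and histone-handling factors. The cells were primary Tregs described as inflammation-experienced, from adult male mouse (6 months) of the strain Foxp3CreERT2 x Rosa26YFP. By its name, that strain carries a tamoxifen-dependent Cre at the Foxp3 locus and a YFP gene at Rosa26. The labels name no agent, dose or sorting gate, and no control Tregs were analysed here. Polyadenylated RNA of 1 biological replicate was sequenced in 3 technical replicate libraries, called libraries 1, 2 and 3 by their technical replicate number. The labels leave out whether the libraries share cells, RNA or cDNA. Every SD and p-value therefore measures the spread between these libraries, which may be technical, and none speaks of other animals.

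In G1, the loaders Cdc6 and Cdt1 place the hexamer of Mcm proteins on origins. At the start of S phase, cyclin E kinase and helper factors add Cdc45 and the GINS complex, and the DNA is unwound. Primase and polymerase alpha start each strand, the clamp PCNA holds the copying polymerases, and RPA covers the single strands. E2F transcription factors, which the retinoblastoma family restrains, drive many of these genes as T cells leave rest, so their transcripts mark cycling cells.

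The libraries held 11829501, 14136139 and 10667765 estimated counts on genes (libraries 1, 2 and 3). They were not interchangeable: 45.7% of 13970 tested genes differed between them beyond counting noise. Of the 8 Treg markers, 8 were detected, and their summed level was 3378, 3060 and 3605 TPM (a level per transcript length, scaled to a common total) in libraries 1, 2 and 3. Cd3e alone held 1119, 1109 and 1128 TPM of this sum, and Foxp3 held 18, 14.2 and 16 TPM. The summed levels of markers of other cells were lower than the Treg sum but unequal. Single genes among them stood above Foxp3, such as Hbb-bs with 108 TPM in library 3. Library 3 had the highest summed erythroid level, at 286 TPM, against 4.83 in library 1 and 51.2 in library 2. The summed NK and cytotoxic level was 15.7, 240 and 66.2 TPM, with 3 of 5 markers detected in all, and Gzmk alone held 5.66, 202 and 53.7 TPM of it. The NK receptor genes had another order, with 0.47, 0.26 and 0.17 TPM for Ncr1 and 0.56, 0.26 and 1.67 TPM for Klrb1c.

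The sequence before the start sites is shown because many replication genes are known E2F targets. Promoters of 35 of the 43 members were matched by symbol in RefSeq (build GRCm38.p6), 39 promoters in all. The 250 bases before each start were searched on both strands for the E2F motifs TTTCGCGC, TTTGGCGC, TTTCCCGC and TTTGCCGC, which can overlap one another. At least 1 of these stood in 20.5% of the member promoters (8 of 39), against 1.86% of all 32851 promoters. The member promoters were richer in G and C, with a median of 61.2% against 52.4%. Among the 8272 promoters at or above that median, 3.63% held an E2F motif. The CCAAT box, also searched on both strands, stood in 59.0% of the member promoters and in 33.8% of all promoters. These are matches of letters and show no binding. The 2 helicase genes with the densest matches are shown in full, at chr1:128359706-128359955 on the minus strand for Mcm6 and chr8:75109259-75109508 on the plus strand for Mcm5, each 5′ to 3′ with the E2F motifs in capitals. In both, 2 of the motifs overlap on opposite strands.
Mcm6: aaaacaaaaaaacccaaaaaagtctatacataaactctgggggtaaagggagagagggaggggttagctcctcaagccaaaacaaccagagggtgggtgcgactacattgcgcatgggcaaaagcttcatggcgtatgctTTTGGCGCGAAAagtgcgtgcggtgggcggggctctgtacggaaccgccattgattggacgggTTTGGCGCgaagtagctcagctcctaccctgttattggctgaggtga
Mcm5: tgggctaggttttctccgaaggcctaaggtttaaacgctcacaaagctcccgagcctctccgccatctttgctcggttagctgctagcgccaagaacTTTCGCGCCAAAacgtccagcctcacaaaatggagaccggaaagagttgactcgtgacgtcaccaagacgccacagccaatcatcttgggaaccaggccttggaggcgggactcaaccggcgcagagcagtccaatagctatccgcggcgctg

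The other 6 members with an E2F motif carried 1 each and are shown as the motif in capitals with up to 10 bases on either side. They lay at chr11:98908003-98908030 on the plus strand (Cdc6), chr1:191575545-191575562 on the minus strand (Dtl), chr8:95633508-95633535 on the plus strand (Gins3), chr5:138172031-138172058 on the minus strand (Mcm7), chrX:93632276-93632303 on the minus strand (Pola1) and chr5:151651209-151651228 on the minus strand (Rfc3).
Cdc6: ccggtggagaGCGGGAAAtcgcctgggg
Dtl: gtgacgtcagTTTGGCGC
Gins3: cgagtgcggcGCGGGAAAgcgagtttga
Mcm7: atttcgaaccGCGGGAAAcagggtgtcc
Pola1: tcatcacaggGCGCCAAAtgcactcccg
Rfc3: cgtcgcacgcTTTCGCGCtc
The RefSeq starts of Cdc6, Gins3, Mcm7 and Rfc3 lie 350, 106, 539 and 34 bases downstream of the GENCODE starts of these genes. Their motifs therefore lie inside the longer GENCODE gene, after its start.

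All 43 members were detected at 1 TPM or more in each library. Their summed level was 3983, 3715 and 2897 TPM in libraries 1, 2 and 3, on average 3532 ± 566 TPM (SD, n = 3 libraries). Of the members, 38 lay above 15.6 TPM, the median of the 12470 genes detected in all libraries. On average 9 members reached 100 TPM or more, 32 lay from 10 to under 100 TPM and 2 lay under 10 TPM. The order of the members was much the same in each library, with Rrm2 at place 1 and Rpa1 at place 5 in all 3. Mcm5 differed the most, at places 13, 17 and 19.

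**Figure D1:**
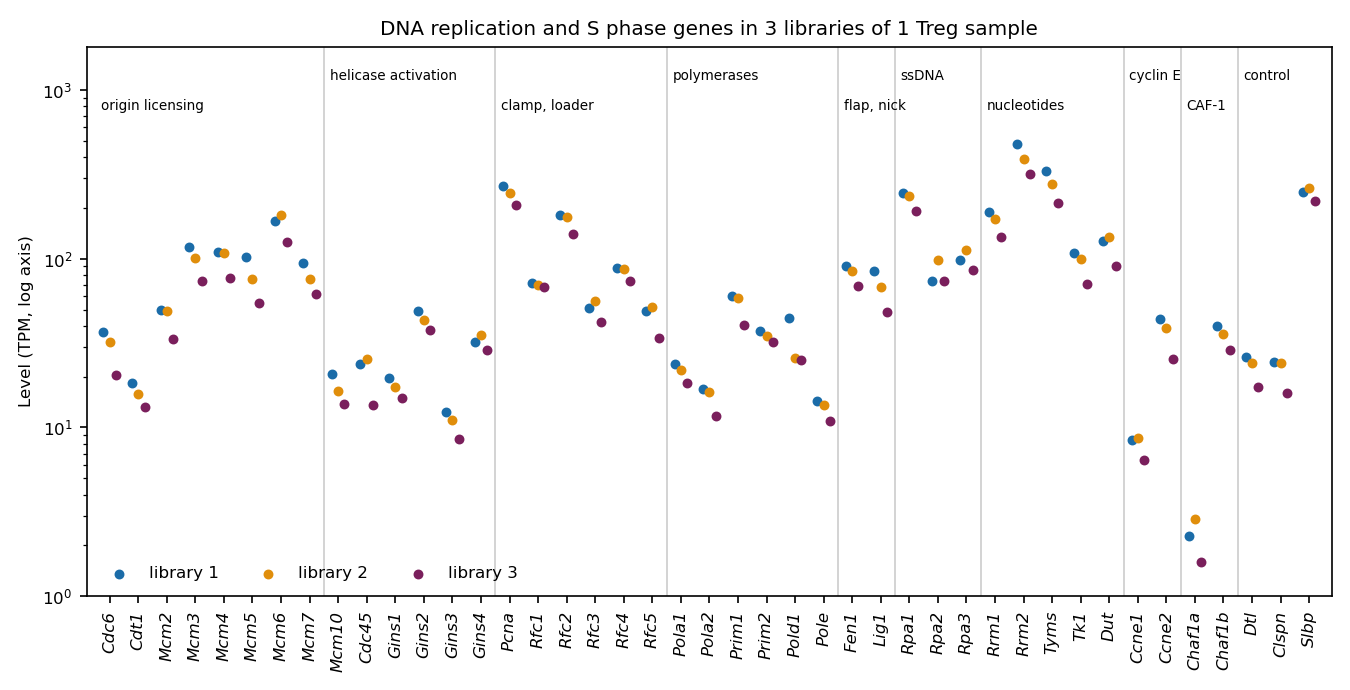
Level (TPM, log axis) of the 43 members in library 1 (blue), library 2 (orange) and library 3 (purple), grouped by role; ssDNA marks the RPA genes, CAF-1 chromatin assembly and control the genes Dtl, Clspn and Slbp. Mean levels run from 2.24 TPM for Chaf1a to 397 TPM for Rrm2, and the library 3 point is the lowest of its gene in all 43 members.

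By CPM (counts scaled to TMM-adjusted library sizes), library 3 was the lowest for each of the 43 members, against 37.3% of all tested genes. Among genes in the members' range of mean counts, it was the lowest for 3798 of 8493. By TPM it was also the lowest for all 43, but the share over all genes was not computed by TPM. Counts of 41 of the 43 members differed between the libraries beyond counting noise by a Poisson chi-square test with Benjamini-Hochberg adjustment over all tested genes. The background is high, at 45.7% of the tested genes and 52.3% of those in the members' range of mean counts (121 to 7942), so the count itself says little about the members. A call with library 3 lowest was made for the same number, 41 of 43, against 19.5% of all tested genes. The median difference from a gene's own mean over the libraries was 0.17, 0.14 and -0.34 (log2 CPM, libraries 1, 2 and 3) for the members, against 0.00, 0.01 and 0.00 for all tested genes. In single members the library 3 value ran from -0.65 for Cdc45 to -0.12 for Rfc1. In a bulk sample, fewer cycling cells and less of these RNAs per cell cannot be told apart.

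The calls hold for counting noise only. The common dispersion of edgeR is a coefficient of variation of 16.9% between the libraries. With it added to the variance, 0 of 43 members passed the chi-square test, against 3.29% of all genes. In that test 4 members had an unadjusted p under 0.05, as did 1252 of 13970 genes. These are similar shares, so this count says little about the members. A fold of at least 1.5 between the highest and lowest library, with an adjusted p under 0.05, was reached by 20 members, against 17.5% of genes. Without library 1, 38 members passed (33.8% of genes), without library 2 also 38 (30.7% of genes), and without library 3 only 15 (21.3% of genes). In the second table, with whole-number counts, library 3 was lowest for 42 members (36.9% of genes), the exception being Rrm2, lowest there in library 2, and 33 members passed the chi-square test (21.6% of genes). The 8 that lost the call there were Gins3, Gins4, Pcna, Rfc1, Prim2, Rpa3, Chaf1a and Slbp. Scaled by total counts alone, 42 members were lowest in library 3 (28.5% of genes), the exception being Rpa2, lowest there in library 1.

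**Figure D2:**
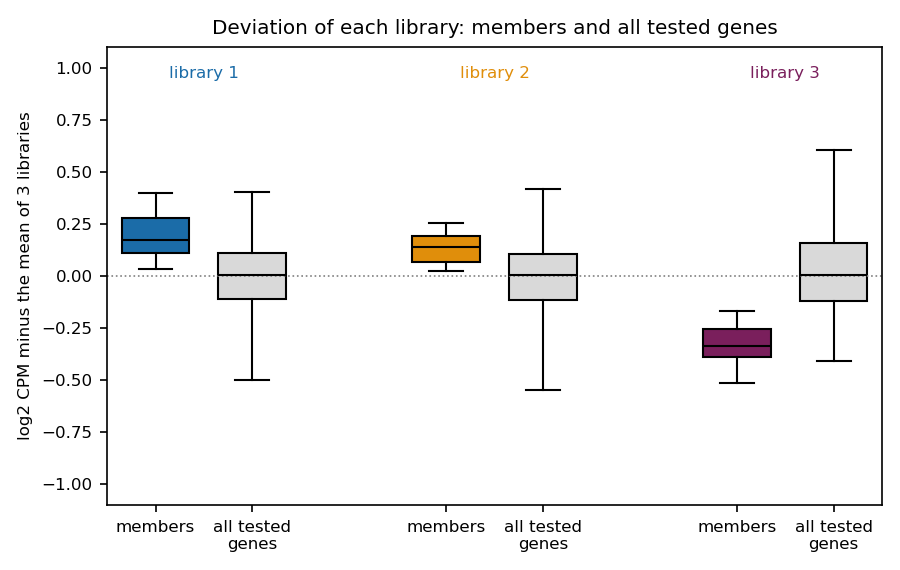
Difference of each library from the gene's own mean over 3 libraries (log2 CPM), for the 43 members (coloured) and all 13970 tested genes (grey); boxes span the quartiles, the line is the median and whiskers run from the 5th to the 95th percentile of genes. The members' medians are 0.17, 0.14 and -0.34 in libraries 1, 2 and 3, while the grey medians lie at 0.00, 0.01 and 0.00.

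All 8 origin licensing genes passed the chi-square test, and each was lowest in library 3. The licensing factor Cdc6 had 37.0, 32.3 and 20.5 TPM in libraries 1, 2 and 3, and its partner Cdt1 had 18.3, 15.7 and 13.2 TPM. Cdc6 had the lowest library 3 value of the licensing genes, at -0.57 (log2 CPM from its mean), and both differed by the chi-square test (edgeR-scaled counts, adjusted p = 7.89e-28 for Cdc6 and 3.7e-05 for Cdt1). Among the hexamer subunits, Mcm6 was the highest, with 168, 181 and 126 TPM, and Mcm2 the lowest, with 49.5, 48.8 and 33.5 TPM. Mcm6 stood 3.61-fold above Mcm2 (log2 difference of TPM + 0.1 of 1.85 ± 0.0803, SD, n = 3 libraries), larger than its spread between libraries. Mcm3 had 117, 101 and 73.7 TPM, Mcm4 had 109, 108 and 77.0 TPM, Mcm5 had 102, 76.2 and 54.3 TPM, and Mcm7 had 94.2, 75.4 and 61.4 TPM. Mcm3 against Mcm4 gave -0.02 ± 0.112 and Mcm5 against Mcm7 gave -0.02 ± 0.148 on the same log2 scale, each within its spread. Mcm4 against Mcm5 gave 0.37 ± 0.237, with 0.09, 0.50 and 0.50 in libraries 1, 2 and 3, above its SD but small in library 1.

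The 6 subunits, whose proteins form a single ring, stood at unlike transcript levels. Mcm6 (ENSMUSG00000026355.11, chr1:128331590-128359664, minus strand, mm10) differed 1.5-fold between its highest and lowest library, with counts of 4351, 5720 and 3030 (chi-square per degree of freedom 167, adjusted p = 3.19e-71). Mcm3 differed 1.73-fold (162, adjusted p = 7.46e-69 by the same chi-square) and Mcm5 1.96-fold (184, adjusted p = 1.25e-78). Mcm2, Mcm4 and Mcm7 differed 1.49-, 1.44- and 1.53-fold. In all 6, library 3 was the lowest, while the order of libraries 1 and 2 depended on the subunit. For Mcm5 the libraries were graded, at 0.46, 0.05 and -0.51 (log2 CPM from its mean, libraries 1, 2 and 3).

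The genes that turn the loaded ring into a working helicase were lower. Mcm10, needed to activate it, had 20.6, 16.5 and 13.7 TPM, and Cdc45, a part of the active helicase, had 23.8, 25.6 and 13.5 TPM in libraries 1, 2 and 3. Cdc45 (ENSMUSG00000000028.15, chr16:18780447-18811987, minus strand) had the widest spread of all members in fold, 2.02 between libraries 2 and 3, from counts of 439, 543 and 214. Of its exonic bases, 5.96% overlap Ufd1 on the opposite strand. The 4 GINS subunits, which bind Cdc45 and the ring, differed 1.29- to 1.35-fold. Gins1 had 19.6, 17.4 and 14.9 TPM, Gins3 had 12.3, 11 and 8.52 TPM, and Gins4 had 32.2, 35.4 and 28.7 TPM. Gins1 did not pass the chi-square test (adjusted p = 0.127, 1.31-fold, counts of 165, 183 and 118). Gins3 (1.35-fold, adjusted p = 0.0152, chi-square per degree of freedom 5.2) and Gins4 (1.29-fold, adjusted p = 0.00552, 6.39) passed narrowly. Gins3 lost the call with total counts (chi-square adjusted p = 0.0506) and with whole-number counts, and Gins4 with whole-number counts and without library 2. Gins2 stood at 49.0, 43.2 and 37.9 TPM over all its transcripts, a value that rests mostly on non-coding ones, as given below.

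The sliding clamp Pcna (chr2:132249162-132253314, minus strand) was among the highest members, with 271, 245 and 209 TPM in libraries 1, 2 and 3. Of the processed copies named after it, Pcna-ps2 was assigned 16, 31 and 9 estimated counts, against 3343, 3694 and 2278 for Pcna. Copies under other names were not searched. The clamp loaders differed widely in level. Rfc1, the large subunit, had 71.6, 70.0 and 68.4 TPM, Rfc2 had 181, 177 and 141 TPM, and Rfc3 had 51.2, 56.3 and 42.2 TPM. Rfc4 had 87.6, 87.2 and 74.2 TPM and Rfc5 had 49.2, 52.1 and 34.1 TPM. Rfc1 was the flattest of all members in TPM (70.0 ± 1.62, SD, n = 3 libraries), and its 1.18-fold difference in CPM passed the chi-square test (adjusted p = 0.00129) but not in whole-number counts or without library 1.

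Primase and polymerase alpha begin each strand. Their catalytic subunits were Prim1, with 60.0, 58.6 and 40.6 TPM, and Pola1, with 23.7, 22 and 18.4 TPM. The accessory Prim2 had 37.2, 34.6 and 32.1 TPM, and Pola2 had 16.9, 16.2 and 11.7 TPM. Prim1 stood 2.45-fold above Pola1 and 1.51-fold above Prim2. Prim2 differed only 1.18-fold and was the weakest of the 41 calls (chi-square per degree of freedom 3.98, adjusted p = 0.0423), from counts of 677, 752 and 538. It lost the call with total counts, with no filter on low counts, in whole-number counts and without library 1. The catalytic subunits of the copying polymerases were Pold1, with 44.5, 25.8 and 25.0 TPM, and Pole, with 14.3, 13.5 and 10.9 TPM. For Pold1, library 1 was the one apart, and without it the gene no longer passed.

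Fen1, which trims the flaps between lagging-strand fragments, had 91.1, 84.4 and 68.8 TPM, and Lig1, which seals them, had 84.4, 68.0 and 48.5 TPM. Lig1 had the larger spread, 1.80-fold against 1.38-fold for Fen1. The exons of Fen1 overlap the antisense gene Gm10143 over 78.8% of their bases; that gene had 93, 138 and 134 counts, against 1797, 1993 and 1219 for Fen1. The RPA subunits bind single strands as a trimer. Rpa1 had 247, 235 and 193 TPM, Rpa2 had 74.2, 98.7 and 73.5 TPM, and Rpa3 had 98.9, 112 and 85.9 TPM. Rpa1 stood 2.28-fold above Rpa3. For Rpa2, libraries 1 and 3 nearly coincided and library 2 stood above them, and the gene lost its call without library 2.

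Deoxynucleotide supply held the highest levels. Rrm2 (ENSMUSG00000020649.11, chr12:24708241-24714146, plus strand), the small subunit of ribonucleotide reductase, had 482, 392 and 319 TPM, the highest member in every library. Its counts of 9194, 9037 and 5595 gave a chi-square per degree of freedom of 323, the largest among the members ( adjusted p = 1.59e-138, 1.53-fold). In whole-number counts, where Rrm2 held 20.3% of its estimated count, the difference was 1.18-fold with library 2 lowest. The large subunit Rrm1 had 188, 172 and 134 TPM, 1.46-fold apart (chi-square per degree of freedom 149, adjusted p = 3.16e-63). Rrm2 stood 2.40-fold above Rrm1, a log2 difference of 1.27 ± 0.0866 (SD, n = 3 libraries). By coding transcripts alone it stood 4.03-fold above (2.01 ± 0.174), as 39.4% of the Rrm1 level lay in transcripts annotated for nonsense-mediated decay. Tyms, thymidylate synthase, had 330, 278 and 213 TPM, 1.53-fold apart (adjusted p = 7.95e-43 by the chi-square test). Tk1, which salvages thymidine, had 108, 100 and 70.9 TPM, and Dut, which removes dUTP, had 127, 134 and 91.0 TPM. The group's summed level was 1234, 1076 and 827 TPM, the largest of the role groups.

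The E-type cyclins differed from each other. Ccne2 had 44.1, 38.8 and 25.5 TPM, against 8.45, 8.71 and 6.44 TPM for Ccne1, so that Ccne2 stood 4.47-fold above it. Ccne1 was the second of the 2 members that did not pass (chi-square per degree of freedom 2.19, adjusted p = 0.18), with counts of 143, 153 and 102 and a 1.31-fold difference. Exons of Ccne2 overlap Ints8 on the opposite strand over 17.4% of their bases.

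Chromatin assembly factor 1 places histones on new DNA. Its subunit Chaf1b had 40.1, 35.6 and 28.9 TPM, and Chaf1a, the large one, was the lowest member of all, with 2.26, 2.85 and 1.60 TPM. Chaf1b stood 15.2-fold above Chaf1a. The posterior SD of the Chaf1a count reached 9.08% of the count, the largest of the members, against under 1% in 40 members. Of its exonic bases, 52.5% overlap Ubxn6 on the opposite strand. With counts of 117, 168 and 78 it differed 1.71-fold (chi-square adjusted p = 0.00145) and lost the call in whole-number counts and without library 2. Dtl, the substrate receptor that marks Cdt1 for degradation, had 26.1, 24.1 and 17.3 TPM. Clspn, a checkpoint mediator at forks, had 24.4, 24.0 and 16.1 TPM. Slbp, which binds the stem-loop of histone mRNA, had 248, 262 and 220 TPM, the third highest mean, and its 1.24-fold difference passed the chi-square test (adjusted p = 3.25e-17).

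Libraries 1 and 2 also differed from each other in part of the set. Of the 43 members, 25 were higher in library 1 and 18 in library 2, a share of 58.1% higher in library 1, against 49.9% of all tested genes. The chi-square test on these 2 libraries called 15 members, 34.9%, against 21.3% of all tested genes. In library 1, 11 were higher: Mcm3, Mcm5, Mcm7, Mcm10, Pcna, Pold1, Pole, Lig1, Rrm2, Tyms and Ccne2. In library 2, 4 were higher: Mcm6, Rpa2, Rpa3 and Slbp. Over all 13964 genes tested between these libraries, 1384 were called higher in library 1 and 1594 in library 2. The difference was widest for Pold1, with 67.8 CPM in library 1 and 45.7 CPM in library 2, a log2 difference of 0.57 (chi-square adjusted p = 3.74e-12). For Mcm5 it was 0.41 (adjusted p = 1.19e-19 by the same chi-square) and for Rpa2 it was -0.33 (adjusted p = 3.62e-07). Within the Mcm ring, Mcm5 and Mcm6 therefore differed in opposite directions, each past the test.

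**Figure D3:**
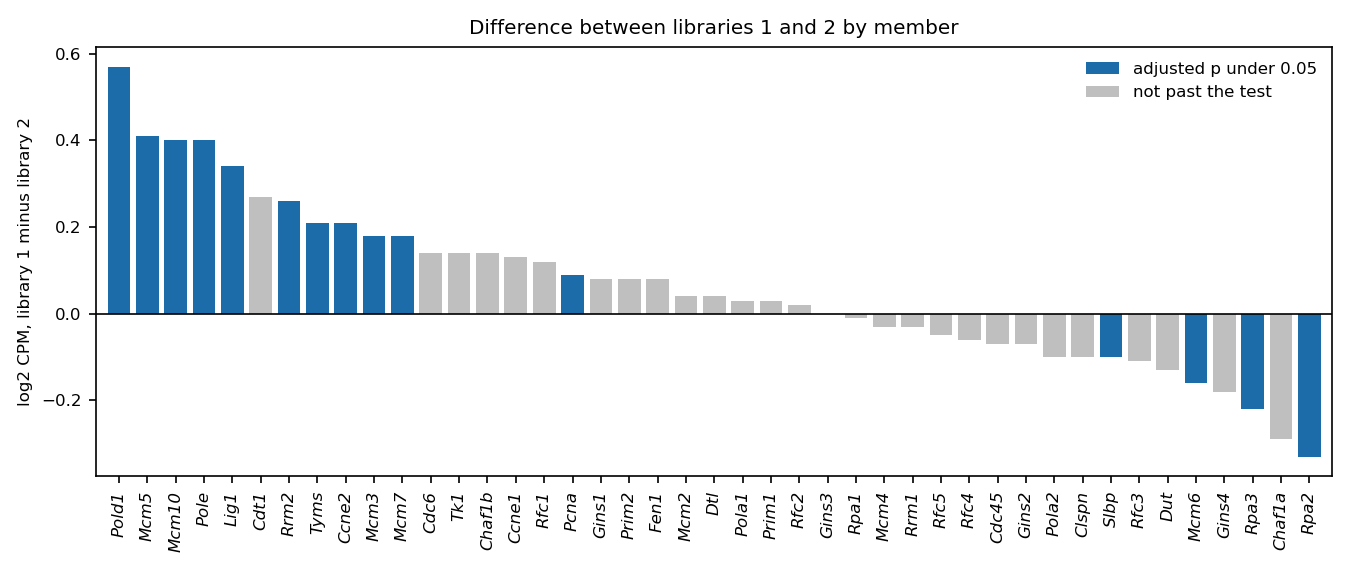
Bars give log2 CPM in library 1 minus library 2 for each of the 43 members, sorted; blue bars passed the chi-square test on these 2 libraries (15 members) and grey bars did not. The bars run from 0.57 for Pold1 to -0.33 for Rpa2.

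Gene levels count every annotated transcript, and the share held by protein-coding transcripts differed widely between members. It was 90% or more on average in 16 members, from 50% to under 90% in 23 and under 50% in 4. The members' median was 85.8%, against 86.5% over 10131 detected coding genes. A share under 50% was found in 9.30% of the members, against 16.1% of those genes. For Mcm4, Gins3, Gins4 and Fen1 the share of 100% is set by the annotation, which lists only coding transcripts for them. Rfc2 (ENSMUSG00000023104.9, chr5:134581366-134601805, plus strand) lay at the other end, with 1.69%, 1.62% and 1.72% in libraries 1, 2 and 3. Its TPM lay mainly in the retained-intron transcripts Rfc2-204 (41.2% on average) and Rfc2-205 (18.9%) and in Rfc2-203 (19.0%), annotated for nonsense-mediated decay. TPM is a level per transcript length, so these are not shares of reads. The coding level of Rfc2 was 3.06, 2.86 and 2.42 TPM, 28.0-fold under Rfc4, while over all transcripts Rfc2 stood 2.00-fold above Rfc4. Exons of Rfc2 overlap Lat2 on the opposite strand over 15.1% of their bases.

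For Gins2 the coding share was 16.7%, 16.0% and 14.2%, with Gins2-204, a retained-intron transcript, leading at 60.1% on average. Of its exonic bases, 67.3% overlap Gse1 on the opposite strand. Its coding level of 8.21, 6.91 and 5.37 TPM was 4.70-fold under Gins4, whereas its gene level was 1.35-fold above. For Tyms the coding share was 16.7%, 18.6% and 15.5%, and Tyms-205 and Tyms-207, both annotated for nonsense-mediated decay, held 36.1% and 31.9%. The coding level of Tyms was 55.1, 51.7 and 33.0 TPM, under Dut by 2.51-fold and under Tk1 by 1.43-fold, in reverse of the gene levels. For Rfc1 the share was 38.2%, 35.1% and 33.6%, with the retained-intron transcript Rfc1-205 at 63.5% on average. By coding transcripts alone, library 3 was still the lowest for all 43 members, but the share over all genes was not computed for coding transcripts. The members' summed coding level was 3001, 2817 and 2145 TPM, which is 75.3%, 75.8% and 74.0% of their total. The assignment of reads to transcripts is the authors' model estimate and was not checked against reads.

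**Figure D4:**
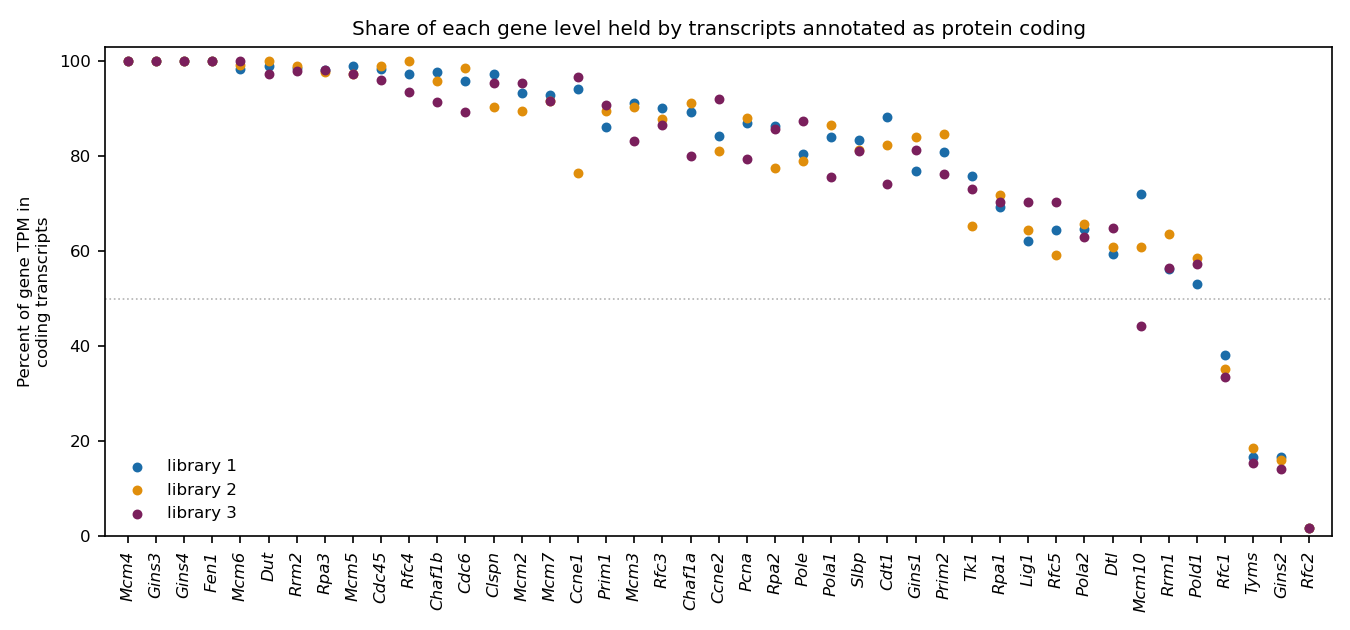
Percent of each gene's TPM held by transcripts annotated as protein coding, for the 43 members in libraries 1 (blue), 2 (orange) and 3 (purple), sorted by the mean. Rfc1, Tyms, Gins2 and Rfc2 lie under the dotted line at 50% in all libraries, and Mcm10 does so in library 3 alone.

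In a few members the transcript makeup differed between the libraries. The coding share of Mcm10 was 72.1%, 60.8% and 44.3% in libraries 1, 2 and 3. Of the Mcm5 gene level, the coding transcript Mcm5-205 held 71.8%, 50% and 28.7%, while the coding transcript Mcm5-203 held 20.3%, 41.7% and 63.3%. Chaf1b-202 was listed at 0 in libraries 1 and 2 and held 40.8% of Chaf1b in library 3. Pole-202 was listed at 0 in library 1 and held 17.2% and 45.7% of Pole in libraries 2 and 3. These shares have no interval here, so that error of the read assignment cannot be told apart from a difference between libraries.

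The other genes of the pathway were in 8 lists with 111 genes, of which 79 passed the chi-square test and 88 were lowest in library 3. The list of G2 and mitosis genes was the one in which library 3 was lowest throughout with every gene called (20 of 20), and its median library 3 difference was -0.45 (log2 CPM), against -0.34 for the members. Its highest genes were Top2a, which untangles DNA, and Birc5 (survivin), a chromosomal passenger protein. Chromatin factors of new DNA were called in 9 of 10 genes and lowest in library 3 in 8 (median -0.21); Rbbp4 and Ssrp1 were the highest, and Asf1a and Supt16 were lowest in library 2. In the degradation of licensing factors, 4 of 6 genes were called and all 6 were lowest in library 3 (median -0.23), with Cks1b and Fbxo5 highest.

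The other 5 lists had medians nearer to 0. Fork components outside the set were called in 12 of 18 genes and lowest in library 3 in 15 (median -0.15), with Tipin and Pold4 highest and Pold4, Rnaseh2a and Top1 not lowest in library 3. Other genes of nucleotide synthesis were called in 14 of 17 and lowest in library 3 in 15 (median -0.16), the exceptions being Rrm2b, the reductase subunit used outside S phase, and Tk2, the mitochondrial thymidine kinase. Samhd1, which degrades deoxynucleotides, and Paics led that list. Origin recognition and firing genes were called in 7 of 14 and lowest in library 3 in 9 (median -0.14), and Orc2, Orc3, Orc5, Recql4 and Mcmbp were lowest in another library. The highest of them were Orc4 and Orc3. Checkpoint genes were called in 6 of 13 and lowest in library 3 in 8 (median -0.04), with Rad9a highest and Atr, Atrip, Hus1, Rad17 and Cdc25a lowest elsewhere. The E2F factors and pocket proteins were called in 7 of 13 and lowest in library 3 in 7 (median -0.09), led by Rbl2 and Rb1. The other 6, E2f3, E2f5, E2f6, Tfdp2, Rb1 and Rbl1, were lowest in library 1 or 2. These lists are given as counts beside the 45.7% called and 37.3% lowest in library 3 over all tested genes, and the differences between lists were not tested.

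**Figure D5:**
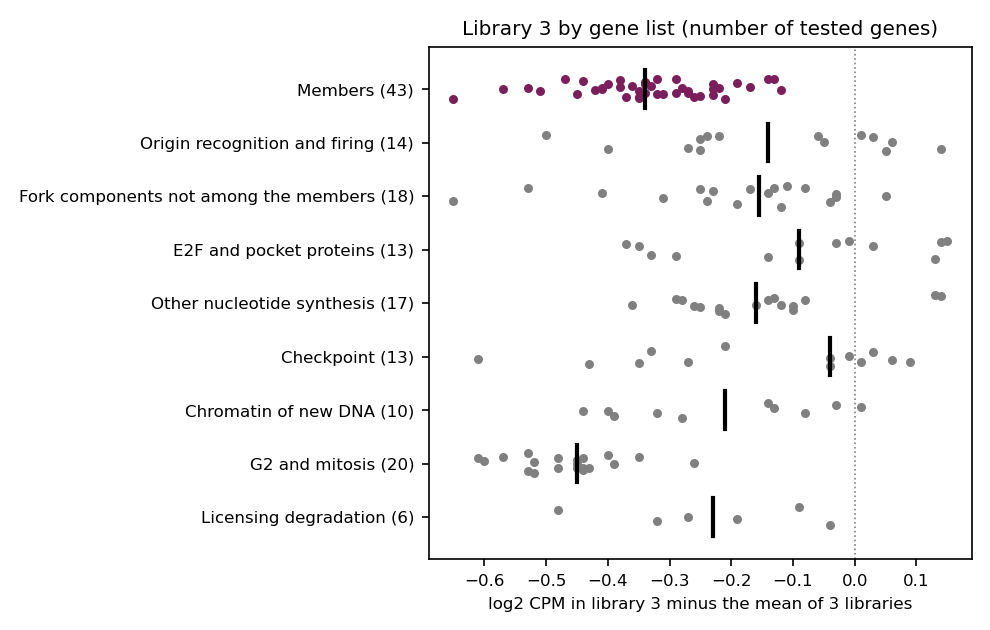
Each point is 1 tested gene, placed by log2 CPM in library 3 minus its mean over 3 libraries; the 43 members (purple) are above the 8 lists of other pathway genes (grey), and black bars are medians. The members' median is -0.34, that of G2 and mitosis genes -0.45 and those of the other lists from -0.04 to -0.23.

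Markers of other cells did not share one order with the members. Of 6 erythroid genes, 3 were detected in all libraries, and 5 of 5 tested were lowest in library 1, where Hba-a2 was at 0. B cell markers, 2 of 6 detected, had 20.6, 46.6 and 59.3 TPM in libraries 1, 2 and 3, with 6 of 6 lowest in library 1. Plasma cell markers, 0 of 4 detected at 1 TPM in all libraries, had 1.57, 22.5 and 27.7 TPM, with Tnfrsf17 and Mzb1 at 0 in library 1, and CD8 T cell markers, 1 of 2 detected, had 5.88, 12.4 and 15.2 TPM. Myeloid markers, 2 of 6 detected, had 9.93, 53.1 and 23.2 TPM, and neutrophil markers, 0 of 4 detected, had 0.05, 8.43 and 2.73 TPM. Thymocyte markers, 0 of 4 detected, were at 0.36, 0.51 and 0.20 TPM, with Rag1 and Rag2 at 0 in all libraries. Their part in the lower member levels of library 3 was not tested. Members with an E2F motif in the 250 bases had a median library 3 difference of -0.35 (log2 CPM, n = 8 genes), and the 27 matched members without it had -0.33.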

How the data were processed

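Each of the 3 libraries had 3 deposited tables. Gene and transcript tables in the RSEM column layout gave, per the file headers, estimated counts, TPM, FPKM, a posterior SD per count, which is a signal of assignment error, and the percent of a gene's TPM that a transcript takes; TPM and FPKM were made by the authors. They rest on mm10 and GENCODE M21. A further deposited table of whole-number counts used GENCODE M4 genes; these summed to 24.0% to 25.6% of the estimated gene totals. The sources used here do not name the aligner, tool versions, strand setting or handling of duplicates, so overlapping genes on opposite strands are uncertain.

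Members were matched by symbol. Members, lists, tests and alternatives were chosen with earlier results of these data known. Every member is named; members with the highest and lowest levels or chi-square values are given with more statistics, and of other lists the 2 highest genes and those against the list's direction, except some not reported here. The quasi-likelihood test of edgeR needs groups to compare and was not possible with 1. Estimated counts were rounded, and each gene with a mean count of 10 or more (13970 genes) was tested across libraries with a Poisson chi-square test, using TMM library sizes from edgeR 4.0.16 in R 4.3.3, at a Benjamini-Hochberg adjusted p of 0.05 (scipy 1.17.1, pandas 2.3.3, Python 3.11.15). The test treats reads as independent. It was also run on simulated data, but that outcome is not reported here and no support is drawn from it. Alternatives used DESeq2 1.42.0 size factors, total counts, no filter, whole-number counts, added variance, a fold of 1.5, and each library left out. A gene at 0 allows up to 3 counts, which is 0.254, 0.212 and 0.281 CPM in libraries 1, 2 and 3; this covers counting error only. Motifs were searched in RefSeq promoters of GRCm38.p6.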

Additional observations from a re-analysis of the deposited data

How the results depend on the processing

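The count of 41 members past the chi-square test (45.7% of genes) was 41 with DESeq2 size factors (45.7% of genes). It was also 41 with the posterior SD added (40.5% of genes). It was 39 with total counts (46.1% of genes), 40 with no filter (21.1%) and 33 with whole-number counts (21.6%). It was 0 with the common dispersion added (3.29% of genes) and 20 when a fold of at least 1.5 was also asked for (17.5%). Leaving out 1 library gave 15 to 38 members (21.3% to 33.8% of genes), the lowest without library 3. With fewer libraries the test asks about fewer differences. Members lowest in library 3 numbered 42 or 43 under each alternative run for it. The share of all genes lowest there was 23.2% with no filter and 28.5% with total counts. It was 36.9% with whole-number counts and 37% with DESeq2 size factors, and it was not computed for TPM or for coding transcripts. Ties at 0 went to the library of lower number, which can make the share with no filter too low. The number detected was 43 at 0.1 TPM and 40 at 10 TPM. The summed level of 3532 TPM was 2654 TPM from coding transcripts alone and 2718 as FPKM, and ranged from 3306 to 3849 TPM with 1 library left out. By their construction, coding transcripts are a part of the gene level and FPKM is on another scale. The rule by coding transcripts for the lowest library and for single levels was chosen after seeing the data. Of the single members, 8 lost their call with whole-number counts, 2 with total counts and 1 with no filter. No paired analysis was possible because there is 1 group. Low counts limit Ccne1, Gins1 and Chaf1a the most, and 1 biological replicate limits every statement to these libraries.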

Other observations

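The whole-number table held 53.8% of the estimated count in the median member (12.2% for Pcna to 81.3% for Pold1), against 25.3%, 24.0% and 25.6% of the gene totals in libraries 1, 2 and 3. After Pcna, the smallest shares were those of Rrm2 at 20.3%, Slbp at 24.6%, Gins3 at 25.8% and Tk1 at 26.4%. In that table the library 3 difference of Rrm2 was -0.06 (log2 CPM), against -0.33 by estimated counts, and that of Pcna was -0.07, against -0.27. For Cdc45, which kept 78.4% of its count, the values were -0.62 and -0.65. A small share did not always go with a smaller difference: the values were -0.27 and -0.29 for Gins3, -0.35 and -0.22 for Gins2 (31.8% of its count) and -0.40 and -0.36 for Dtl (32.3%). These genes were chosen after their values were seen, and the cause of the unequal shares was not tested.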
